A study of Mus musculus with 2 samples.

Results

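The heavy chain constant genes of mouse immunoglobulins were followed across the B lineage of the colon lamina propria. Of the 32285 genes in the count tables, 7 were taken by their symbols: Ighm, Ighd, Ighg3, Ighg1, Ighg2b, Ighg2c and Igha. The remaining heavy constant gene, Ighe, is given for comparison. Cells labelled cd45+ were sorted from mouse gut and sequenced in 2 droplet libraries, CD163_FL and CD163_NC, with 1 library per group. The study set mice without CD163+ macrophages against wild-type mice, per its title, but no label ties either library to a genotype. The labels used here state neither strain, age, sex nor number of animals. The library names are therefore used as they stand, and each ratio compares a pair of libraries and not a pair of conditions.

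A heavy chain constant gene fixes the class, or isotype, of an antibody. A naive follicular B cell makes IgM and IgD from one long transcript by alternative splicing. In germinal centers and other sites of activation the switch regions in front of the constant genes are cut and joined, and the DNA between them is lost, so that a switched cell makes an IgG, IgE or IgA chain. Plasmablasts and plasma cells then secrete the antibody in very large amounts. In the gut most of it is IgA, which is joined by the J chain (Jchain) into dimers and carried across the epithelium.

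All members lie on the minus strand of chromosome 12 in GRCm38 (mm10). In the order in which transcription runs, Ighm spans 113418558 to 113422730, Ighd 113406604 to 113416324, Ighg3 113356224 to 113361232, Ighg1 113325240 to 113330523, Ighg2b 113302965 to 113307933 and Ighg2c 113285325 to 113288932. Ighe follows at 113269260 to 113273248 and Igha comes last, at 113254830 to 113260236. In GENCODE mouse release M21 each member has 2 transcripts, which differ at the 3' end and encode the secreted and the membrane form.

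The IgG genes are close relatives, and how far their sequences part sets how well reads can tell them apart. The first 60 coding bases of the first constant exon are shown for each member, and in Ighg1, Ighg2c and Ighg3 capitals mark the bases that differ from Ighg2b.
Ighm: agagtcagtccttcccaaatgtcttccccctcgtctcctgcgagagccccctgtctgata
Ighd: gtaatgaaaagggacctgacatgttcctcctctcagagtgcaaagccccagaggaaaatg
Ighg3: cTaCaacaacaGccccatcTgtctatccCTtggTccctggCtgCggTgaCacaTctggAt
Ighg1: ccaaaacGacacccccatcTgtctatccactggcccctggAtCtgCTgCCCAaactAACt
Ighg2b: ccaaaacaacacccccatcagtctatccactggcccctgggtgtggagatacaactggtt
Ighg2c: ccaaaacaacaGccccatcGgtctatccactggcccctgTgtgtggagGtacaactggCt
Igha: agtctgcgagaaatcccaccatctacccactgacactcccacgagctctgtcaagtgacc
Over this stretch Ighg2c differed from Ighg2b at 5 bases, and Ighg1 and Ighg3 at 13 each. Over the whole secreted transcript Ighg2b and Ighg2c were 86.3% identical, and the other IgG pairs were 72.6% to 74.8% identical. In the last 300 bases of the secreted transcript, where its 3' reads are drawn from, Ighg2b and Ighg2c were 82.8% identical. The ends of the membrane transcripts were not compared. Counts of this pair are the least certain among the members, since reads from shared stretches cannot be told apart. Igha and Ighm were 47.1% identical.

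IgA and secreted IgM share the tail that binds the J chain. The last 74 coding bases of each secreted form are shown, with capitals for the 62 bases, stop codon included, that only the secreted form carries.
Igha: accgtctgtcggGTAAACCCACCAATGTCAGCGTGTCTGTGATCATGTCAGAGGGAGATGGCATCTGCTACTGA
Ighm: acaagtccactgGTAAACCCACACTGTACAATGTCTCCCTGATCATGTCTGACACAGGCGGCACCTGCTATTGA
Counted back from the stop codon, 47 of the 74 bases were identical.

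Kept were 13722 cells of CD163_FL and 9705 of CD163_NC, with 118383800 and 88781795 unique molecular identifiers (UMIs, each standing for 1 captured RNA molecule) and medians of 6463 and 6024 UMIs per cell. The libraries shared 38 barcodes among kept cells, none of them in the same B lineage class in both. Cells were sorted into classes by marker genes, and no heavy chain gene took part. Cycling plasmablasts numbered 139 in CD163_FL and 215 in CD163_NC, plasma cells 1048 and 1089, germinal center B cells 69 and 270, and follicular B cells 853 and 1529. As shares of kept cells these were 1.01% against 2.22%, 7.64% against 11.2%, 0.503% against 2.78% and 6.22% against 15.8%, with CD163_FL first in each. The sort and the density gradient can set such shares.

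The classes carried their defining markers, but Sdc1 and Mef2b took part in the gates themselves. Follicular B cells could have at most 1 germinal center marker. The shares of both genes were thus set in part by the gating. Sdc1, the plasma cell surface proteoglycan CD138, had a UMI in 88.6% of plasma cells of CD163_FL and 92.5% of those of CD163_NC, against 2.93% and 4.45% of follicular B cells. Mef2b, a transcription factor of germinal center B cells, had a UMI in 53.6% of that class in CD163_FL and 80.7% in CD163_NC, against 1.88% and 4.38% of follicular B cells. Mki67, a proliferation marker, had a UMI in 43.5% of germinal center B cells of CD163_FL and 71.5% of those of CD163_NC. That class may thus be made up differently in the 2 libraries. It was also shallower in CD163_FL (median 7761 UMIs per cell) than in CD163_NC (11564), and the part of depth in the Mki67 shares was not tested. The gates left plasma-like cells out. Of 1584 cells of CD163_FL and 1849 of CD163_NC in which Jchain held over 1% of UMIs, 1089 and 1192 fell in the plasma cell or plasmablast class, and 429 and 384 were barred by the exclusion markers. One exclusion marker was itself seen in the class. Epcam, an epithelial adhesion gene, had a UMI in 41.7% of plasma cells of CD163_FL and 41.6% of those of CD163_NC.

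Free antibody RNA reached nearly every droplet. T cells, which do not make antibody, had a median of 15 Igha UMIs per cell in CD163_FL and 17 in CD163_NC, and 99.94% and 100% of them had at least 1. Igha made up 90.1% of the heavy chain UMIs of T cells in CD163_FL and 90.7% in CD163_NC, against 94.2% and 94.1% in plasma cells. T cells therefore served as the background in each library. A gene was called present in a cell when it had at least 3 UMIs there and a share of the cell's UMIs above the 99th percentile of that share in T cells, and the isotype of a cell was the present gene with the most UMIs after the mean T cell share was subtracted. For Igha that percentile was 0.921% of a cell's UMIs in CD163_FL and 2.20% in CD163_NC, and for Ighm 0.0524% and 0.0967%.

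**Figure D1:**
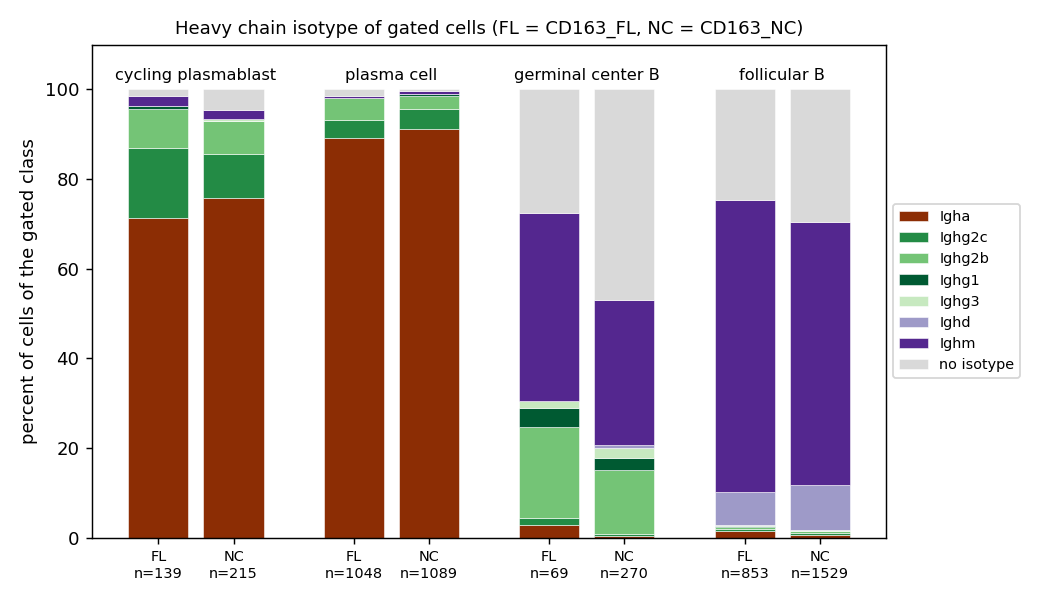
Isotype of the cells of each gated class, as percent of all cells of the class, with CD163_FL left of CD163_NC and the number of cells under each bar; grey is the share with no isotype called. Igha fills 89.1% of CD163_FL and 91.2% of CD163_NC plasma cells, and Ighm leads the called isotypes in both B cell classes. Ighg2b is the switched isotype called most often in germinal center B cells, where Igha could rarely be called against the free RNA.

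IgA dominated the secreting cells of both libraries. Of plasma cells with a called isotype, 934 of 1033 expressed Igha in CD163_FL (90.4%, 95% binomial interval 88.5 to 92.1) and 993 of 1085 in CD163_NC (91.5%, 89.7 to 93.1). These intervals overlap. Here and below they cover counting error only and hold no spread between animals. Cycling plasmablasts, the dividing precursors of plasma cells, held less IgA: 99 of 137 cells in CD163_FL (72.3%, 64.0 to 79.6) and 163 of 205 in CD163_NC (79.5%, 73.3 to 84.8).

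The remainder was mostly IgG, and nearly all of it was Ighg2b or Ighg2c. IgG cells made up 9.20% of called plasma cells in CD163_FL (95 cells, interval 7.50 to 11.1) and 7.93% in CD163_NC (86 cells, 6.39 to 9.70). In cycling plasmablasts the IgG share was 25.5% in CD163_FL (35 cells, 18.5 to 33.7) and 18.5% in CD163_NC (38 cells, 13.5 to 24.5). In each library the plasmablast interval lay above that of plasma cells. Plasmablasts were deeper, with medians of 22239 UMIs in CD163_FL and 24844 in CD163_NC, against 16070 and 16842 in plasma cells. One plasma gate gene, Tnfrsf17, was seen in fewer IgG than IgA plasma cells, as given below. The part of depth and of the gate in these shares was not tested.

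Among IgG plasma cells, Ighg2b, an IgG subclass that fixes complement, was the isotype of 51 of 95 in CD163_FL (53.7%, interval 43.2 to 64.0) and 33 of 86 in CD163_NC (38.4%, 28.1 to 49.5). Ighg2c, the subclass linked to interferon-gamma in strains that carry it, was that of 42 of 95 in CD163_FL (44.2%) and 48 of 86 in CD163_NC (55.8%). The 2 genes thus shared the IgG plasma cells about evenly, and the intervals of the libraries overlap. Ighg1, the subclass linked to interleukin-4, was the isotype of 1 plasma cell in CD163_FL and 4 in CD163_NC, and Ighg3 that of 1 in each. IgM plasma cells numbered 4 of 1033 in CD163_FL (0.387%) and 6 of 1085 in CD163_NC (0.553%). No plasma cell or plasmablast was called IgD.

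Read the other way, the share of secreting cells in the cycling class was higher for Ighg2c than for Igha in both libraries. Of all plasmablasts and plasma cells called Igha, 9.58% were in the cycling class in CD163_FL (99 of 1033, interval 7.86 to 11.5) and 14.1% in CD163_NC (163 of 1156, 12.1 to 16.2). The share was 34.4% of Ighg2c cells in CD163_FL (22 of 64, 22.9 to 47.3) and 30.4% in CD163_NC (21 of 69, 19.9 to 42.7). For Ighg2b it was 19.0% in CD163_FL (12 of 63, 10.2 to 30.9) and 32.7% in CD163_NC (16 of 49, 19.9 to 47.5). The Ighg2c intervals lay above the Igha interval in both libraries, and the Ighg2b interval did so in CD163_NC and overlapped it in CD163_FL. Ighm was rarer, with 3 of 7 cells cycling in CD163_FL and 4 of 10 in CD163_NC. As for the IgG shares above, the part of depth and of the plasma gate was not tested. With Epcam left out of the exclusion markers, a setting added after the data were seen, Igha was called in 148 of 211 called plasmablasts and 1118 of 1248 called plasma cells of CD163_FL, and in 206 of 255 and 1122 of 1233 of CD163_NC.

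In germinal center B cells, where switching is under way, Igha could rarely be called. Its threshold was 0.921% of a cell's UMIs in CD163_FL and 2.20% in CD163_NC. Cells called Ighm gave that gene a median of only 0.195% and 0.228%, and cells called Ighg2b 0.177% and 0.159%. The shares below therefore cannot be set against the IgA share of plasma cells. Of germinal center B cells with a called isotype, Ighm was that of 29 of 50 in CD163_FL (58.0%, interval 43.2 to 71.8) and 87 of 143 in CD163_NC (60.8%, 52.3 to 68.9). IgG was that of 19 in CD163_FL (38.0%, 24.7 to 52.8) and 53 in CD163_NC (37.1%, 29.1 to 45.5). Both shares overlapped between the libraries. Ighg2b accounted for 14 of the 19 IgG cells in CD163_FL (73.7%, 48.8 to 90.9) and 39 of the 53 in CD163_NC (73.6%, 59.7 to 84.7), and Ighg2c for 1 cell in each library (5.26%, 0.133 to 26.0, in CD163_FL and 1.89%, 0.0478 to 10.1, in CD163_NC). The Ighg2c intervals lay below those of IgG plasma cells in both libraries (34.0 to 54.8 in CD163_FL and 44.7 to 66.5 in CD163_NC). With a threshold on T cell UMI counts in place of shares, chosen after the data were seen, Ighg2b was the isotype of 14 germinal center B cells in CD163_FL and 61 in CD163_NC, and Ighg2c of 1 and 14.

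IgA in germinal center B cells was hard to see through the free RNA. Only 2 cells in CD163_FL and 1 in CD163_NC were called Igha, while 19 of 69 and 127 of 270 had no isotype. Summed over the class, Igha stood at 2481 CPM (UMIs scaled to a total of 1e6) in CD163_FL and 2295 in CD163_NC, against 2341 and 3168 CPM in T cells. Set against T cells of like depth, germinal center B cells with 15000 to 60000 UMIs had a median of 42.5 Igha UMIs in CD163_FL (10 cells) and 39.5 in CD163_NC (96 cells), while T cells had 26 in each library. At 6000 to 9000 UMIs the medians were 14 in CD163_FL (17 cells) and 22 in CD163_NC (53 cells), against 16 and 19 in T cells, so the classes overlapped there. Under the threshold on T cell UMI counts 9 of 69 germinal center B cells were called Igha in CD163_FL and 16 of 270 in CD163_NC. The share of IgA cells in this class was therefore not fixed at this level of free RNA.

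**Figure D2:**
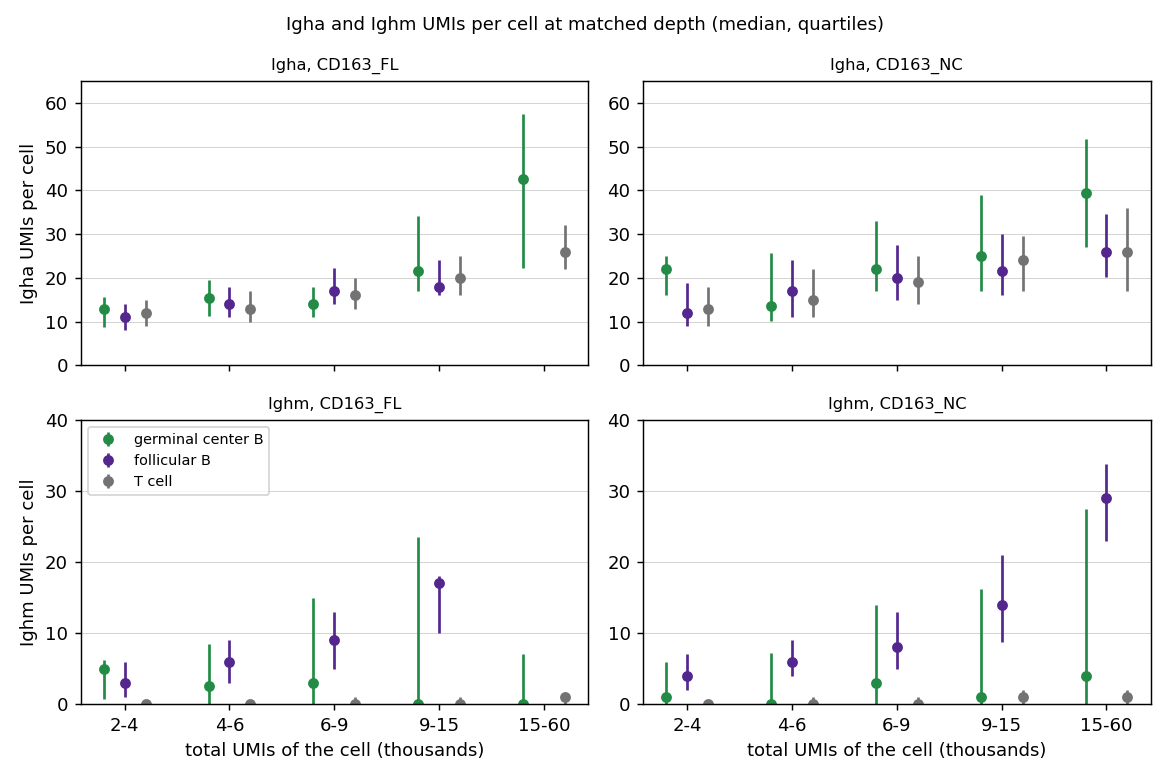
Igha (top) and Ighm (bottom) UMIs per cell against the total UMIs of the cell, with the median as a point and the quartiles as a line, for germinal center B, follicular B and T cells, CD163_FL left and CD163_NC right; a class with under 10 cells in a bin is not drawn. Igha of follicular B cells lies with T cells in every bin drawn, whereas their Ighm lies above T cells throughout.

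Follicular B cells carried IgM and IgD. Of cells with a called isotype, Ighm led in 555 of 642 in CD163_FL (86.4%, interval 83.6 to 89.0) and 896 of 1076 in CD163_NC (83.3%, 80.9 to 85.5), and Ighd in 63 (9.81%) and 155 (14.4%). Ighm stood at 1332 CPM in CD163_FL and 1358 CPM in CD163_NC, with 4.28% and 7.31% of those UMIs accounted for by the T cell level. Ighd stood at 412 CPM in CD163_FL and 340 CPM in CD163_NC, against 2.06 and 4.33 CPM in T cells. Both genes were thus far above background. Their ratio, Ighm over Ighd, was 3.11 in CD163_FL and 3.75 in CD163_NC after the T cell level was subtracted. Ighd without Ighm was seen in 31 cells of CD163_FL and 138 of CD163_NC, and the Ighm share that a cell had to pass was also higher in CD163_NC, as given above. IgG was called in 12 follicular B cells of CD163_FL (1.87%) and 14 of CD163_NC (1.30%). The same rule called Ighg2b and Ighg2c in 0.343% and 0.300% of T cells of CD163_FL, against 0.586% and 0.469% of all follicular B cells. In CD163_NC it was 0.297% and 0.509% of T cells, against 0.392% and 0.392%. These follicular calls thus lay near the rate in cells that make no antibody.

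Ighd was lower in germinal center B cells and plasma cells than in follicular B cells. In the remaining B cells, which passed neither B cell gate, it stood at 322 CPM in CD163_FL and 204 CPM in CD163_NC. In germinal center B cells Ighd stood at 73.4 CPM in CD163_FL and 34.3 CPM in CD163_NC, and Ighm over Ighd was 13.5 and 26.4 after subtraction, above the follicular ratio in each library. In plasma cells Ighd was 3.09 CPM in each library, near the T cell level. Ighm in plasma cells came from few cells: its median was 0 UMIs in both libraries, and the highest cell had 3277 in CD163_FL and 3751 in CD163_NC.

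**Figure D3:**
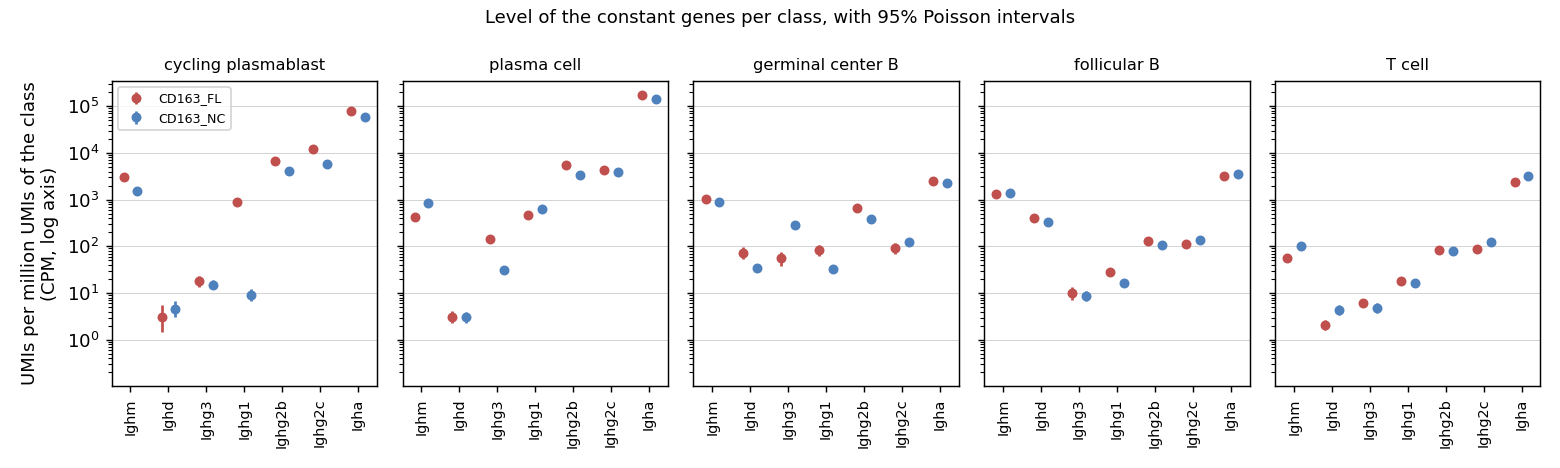
Level of each constant gene, as CPM of the class on a log axis, with 95% Poisson intervals, in 4 B lineage classes and in T cells as background, CD163_FL in red left of CD163_NC in blue. Igha is the highest member in every panel, and Ighd is highest in follicular B cells, at 412 CPM in CD163_FL and 340 CPM in CD163_NC.

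Secreting cells gave a large part of their RNA to 1 gene. Since 3' tags count molecules, levels are compared between genes without a correction for length. Summed over plasma cells, Igha held 17.5% of all UMIs in CD163_FL and 14.1% in CD163_NC, and over cycling plasmablasts 8.07% and 5.98%. In the IgA plasma cells themselves the median share was 20.0% in CD163_FL (quartiles 15.0 and 23.4) and 15.4% in CD163_NC (12 and 18.5). The quartile ranges overlap, and the median was higher in CD163_FL. Jchain, by contrast, held a median of 4.67% in CD163_FL and 4.61% in CD163_NC, so that Igha per Jchain UMI was 4.11 and 3.27. Igkc, the kappa light chain constant gene, moved the other way in the class, with 220274 CPM in CD163_FL and 254309 CPM in CD163_NC.

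Ighg2b and Ighg2c plasma cells had lower median shares of their own chain and of Jchain than IgA cells. Ighg2b held a median of 12.7% of UMIs in Ighg2b cells of CD163_FL (quartiles 7.98 and 17) and 13.2% in those of CD163_NC (9.67 and 16.7). Ighg2c held 12.3% in CD163_FL (10.2 and 14.1) and 8.19% in CD163_NC (5.13 and 12). The quartile ranges of the own chain overlap those of IgA cells for Ighg2b in both libraries, and the Ighg2c range lay below the IgA range in both. The 4 Ighg1 plasma cells of CD163_NC had a median own share of 18.2%, above that of IgA cells. Jchain held 2.31% and 2.19% in Ighg2b cells and 2.51% and 1.86% in Ighg2c cells, with CD163_FL first. In each library these 2 Jchain medians lay below the lower quartile of IgA cells (3.33% in CD163_FL and 3.39% in CD163_NC). A lambda light chain constant gene outweighed Igkc in 0 of 51 Ighg2b cells of CD163_FL and 0 of 33 of CD163_NC, and in 0 of 42 and 2 of 48 Ighg2c cells. Among IgA plasma cells it did so in 57 of 934 of CD163_FL (6.10%, interval 4.65 to 7.83) and 73 of 993 of CD163_NC (7.35%, 5.81 to 9.15). The upper bounds of the Ighg2b and Ighg2c counts, 6.98% and 8.41% in CD163_FL and 10.6% and 14.3% in CD163_NC, reach into those intervals, so no difference was detectable at these cell numbers.

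**Figure D4:**
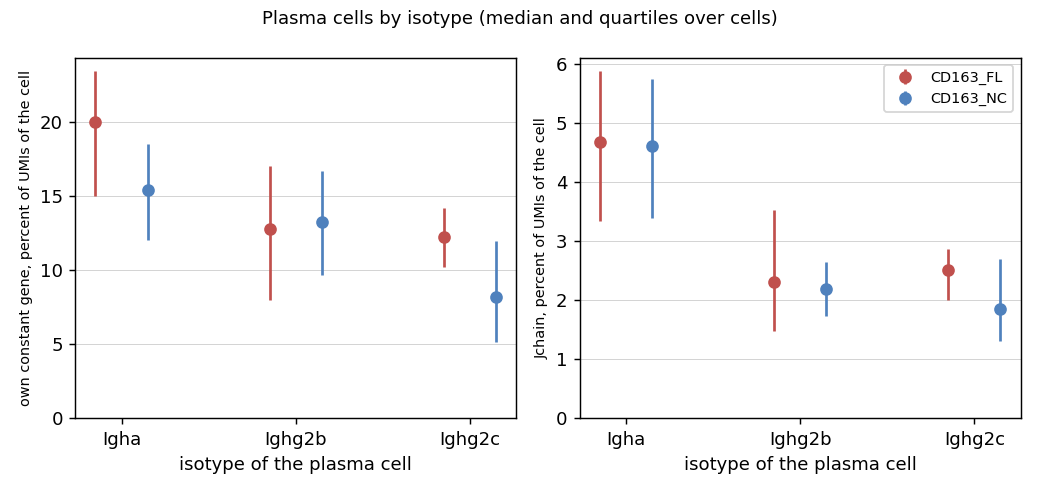
Share of a plasma cell's UMIs held by its own constant gene (left) and by Jchain (right), median and quartiles over cells, for cells called Igha, Ighg2b or Ighg2c, CD163_FL in red left of CD163_NC in blue. Of the 3 isotypes drawn, Igha cells have the highest median of both shares, and their Jchain medians are 4.67% in CD163_FL and 4.61% in CD163_NC.

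Among 41 genes of switching, plasma cell maturation, survival and homing, IgG and IgA plasma cells were set against each other within each library, as CPM of UMIs outside the immunoglobulin genes. Cells of 1 library share their source and are not replicates, so sizes are given without a test. At 1.5-fold, 8 of 38 measured genes were higher and 9 lower in IgG cells of CD163_FL, where of all 10582 genes 16.5% were higher and 15.3% lower (31.9% either way). In CD163_NC 10 of 37 were higher and 9 lower, where of all 10915 genes 17.9% were higher and 16.7% lower (34.6% either way). In both libraries alike 3 of 37 were higher and 5 lower, where over all 10289 genes measured in both 5.16% were higher and 6.18% lower.

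The 5 lower genes were Tnfrsf17, Ccr10, Ccr9, Runx2 and Jchain. Tnfrsf17, which encodes the survival receptor BCMA, had a UMI in 24 of 95 IgG cells of CD163_FL (25.3%, interval 16.9 to 35.2) against 629 of 934 IgA cells (67.3%, 64.2 to 70.3). In CD163_NC it had one in 17 of 86 IgG cells (19.8%, 12 to 29.8) against 811 of 993 IgA cells (81.7%, 79.1 to 84.0). Its log2 ratio, IgG over IgA, was -1.92 in CD163_FL and -2.53 in CD163_NC. Tnfrsf17 was also a gate gene, for cells of every isotype alike.

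Ccr10, a homing receptor of IgA cells in mucosa, had a UMI in 32.6% of IgG and 64.3% of IgA cells of CD163_FL and in 31.4% and 62.2% of those of CD163_NC, with log2 ratios of -0.91 and -1.80. Ccr9, the receptor for the intestinal chemokine CCL25, had log2 ratios of -1.23 in CD163_FL and -1.86 in CD163_NC, the second of these from 6 UMIs in IgG cells. Runx2, a transcription factor needed with Runx3 for switching to IgA, had -0.92 and -0.78, and Jchain -1.09 and -1.35. Depth went the same way, with medians of 13842 UMIs in IgG and 16355 in IgA cells of CD163_FL and of 14460 and 17019 in CD163_NC. CPM takes depth into account, while the shares of cells with a UMI do not.

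Among the 3 higher genes were Smad3 and Cxcr4. Over IgG and IgA cells together they rested on fewer UMIs than most of the lower genes. In IgG cells alone Cxcr4 had 104 UMIs in CD163_FL and 65 in CD163_NC. That was more than Tnfrsf17 (43 and 49), Ccr10 (94 and 44) or Ccr9 (27 and 6). Smad3, which carries the TGF-beta signal, had 37 UMIs in IgG and 94 in IgA cells of CD163_FL and 35 and 37 in CD163_NC, with log2 ratios of 1.96 and 3.45. Cxcr4, a homing receptor for bone marrow, had log2 ratios of 0.69 and 1.13. Ms4a1, the B cell gene for CD20, had a UMI in 8.42% of IgG and 2.25% of IgA plasma cells of CD163_FL and in 25.6% and 4.03% of those of CD163_NC. Trac, a T cell gene, had one in 13.7% and 10.4% in CD163_FL and in 12.8% and 8.66% in CD163_NC. Cd3e, another T cell gene, had one in 3.16% and 3.43% in CD163_FL and in 2.33% and 2.01% in CD163_NC. The part of these other cell types' RNA in the differences was not tested.

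Most secreting cells expressed 1 isotype. A second constant gene was also called present in 298 of 1033 plasma cells of CD163_FL (28.8%) and 226 of 1085 of CD163_NC (20.8%), but its share of the heavy chain UMIs of those cells was small, with medians of 0.723% and 1.31%. It reached 10% in 8 plasma cells of each library (0.774% in CD163_FL and 0.737% in CD163_NC), and in 2 plasmablasts of CD163_FL and 4 of CD163_NC. Doublets, of which some will have stayed, give such cells too, and their part was not tested.

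Variable genes gave a coarse view of how varied the IgA cells were. An Ighv gene was assigned where it had at least 10 UMIs, in 565 of 1033 IgA secreting cells of CD163_FL and 864 of 1156 of CD163_NC. These used 70 different leading Ighv genes in CD163_FL and 81 in CD163_NC. The cells without an assigned gene are not described, and their share differed between the libraries. Ighv1-81 led in both, in 68 cells of CD163_FL (12%) and 59 of CD163_NC (6.83%). Among Ighg2b cells no Ighv gene led in more than 2 of 14 in CD163_FL, and Ighv1-72 led in 7 of 28 in CD163_NC.

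Between the libraries, members were set side by side as the ratio of CD163_FL over CD163_NC in each class, and 1.5-fold was taken as apart. In cycling plasmablasts 4 of 7 members passed, all higher in CD163_FL, where 28.7% of the 10300 genes measured did so in either direction. In plasma cells 3 of 7 passed, against 30.4% of 12408 genes. In germinal center B cells it was 4 of 7, against 42% of 9567 genes, and in follicular B cells 1 of 7, against 27.8% of 10857. With 1 library per group such ratios have no replicate check. With stricter gates the members that passed numbered 2 in each of the plasmablast, germinal center and follicular classes.

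Igha itself was within 1.5-fold in the secreting classes, with a log2 ratio of 0.43 in plasmablasts and 0.31 in plasma cells. In germinal center B cells it was 0.11 and in follicular B cells -0.12, but there the T cell level accounts for most of the Igha UMIs: 94.3% in CD163_FL and 138% in CD163_NC in germinal center B cells, and 71.8% and 89.6% in follicular B cells. With that level subtracted, the follicular ratio turned to 1.32 and the germinal center one could not be computed. At 4000 to 6000 UMIs follicular medians were 14 Igha UMIs in CD163_FL and 17 in CD163_NC, against 13 and 15 in T cells. Ighg2c in germinal center B cells, at -0.44 over all UMIs, turned to 1.17. Its 91.3 and 124 CPM there lay near the T cell levels of 87.6 and 122 CPM, so that ratio rests on small remainders. In follicular B cells Ighg1, Ighg2b and Ighg2c then passed 1.5-fold as well, each higher in CD163_FL. Ighg1 there was near the T cell level, as given below. The rarer isotypes rested on single cells. Ighg1 in plasmablasts stood at 904 CPM in CD163_FL and 9.21 CPM in CD163_NC, but 1 cell gave 98.7% of the CD163_FL UMIs, and without the highest cell of each library, a setting added after the data were seen, the levels were 11.6 and 5.69 CPM. Ighg3 in plasma cells stood at 141 CPM in CD163_FL and 30.7 CPM in CD163_NC, and without those cells at 24.8 and 18.4 CPM. Ighg3 in germinal center B cells stood at 55.5 CPM in CD163_FL and 280 CPM in CD163_NC, where 1 cell with 986 UMIs gave 87.0%, and at 28.1 and 36.7 CPM without those cells. None of these Ighg3 pairs was 1.5-fold apart without the highest cells. In plasmablasts Ighg3 (log2 ratio 0.23) and Ighd (-0.58) were within 1.5-fold over all cells, and without the highest cells both were lower in CD163_FL (-0.81 and -0.77), from at most 40 UMIs a library.

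Ighg1 in plasma cells was within 1.5-fold over all cells (log2 ratio -0.49). When those cells were left out it was -3.47, with 37.5 CPM in CD163_FL and 416 CPM in CD163_NC. In CD163_FL 1 cell gave 91.9% of these UMIs, and only 1 plasma cell was called Ighg1, against 4 in CD163_NC. The value of -3.47 therefore rests on a few cells of CD163_NC. Over all kept cells, gated or not, Ighg1 had 28712 UMIs in CD163_FL and 12609 in CD163_NC. Ighm was higher in CD163_FL in plasmablasts (log2 ratio 0.99, and 1.56 without the highest cells) and lower in plasma cells (-1.0, and -1.49). Plasmablasts called IgM numbered 3 in CD163_FL and 4 in CD163_NC, and IgM plasma cells 4 and 6. Ighg2c in plasmablasts, with a log2 ratio of 1.10, came from 22 cells of CD163_FL (16.1% of those called, interval 10.3 to 23.3) and 21 of CD163_NC (10.2%, 6.45 to 15.2), and by cell share the intervals overlap.

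Ighg2b was higher in CD163_FL in plasmablasts (log2 ratio 0.76), in plasma cells (0.68) and in germinal center B cells (0.78). Without the highest cells its ratio in germinal center B cells was 0.54, within 1.5-fold. In plasma cells, stricter gates turned its direction, to -0.10, and the mean of per-cell shares gave 0.56, within 1.5-fold. Ighd in germinal center B cells was higher in CD163_FL (1.10, from 45 UMIs against 139 in CD163_NC), and stricter gates turned it to -0.51. Ighg1 was higher in germinal center B cells (1.31, from 51 and 136 UMIs) and in follicular B cells (0.76), where its 27.7 CPM in CD163_FL and 16.4 CPM in CD163_NC lay near the T cell levels of 18.2 and 16.1 CPM.

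**Figure D5:**
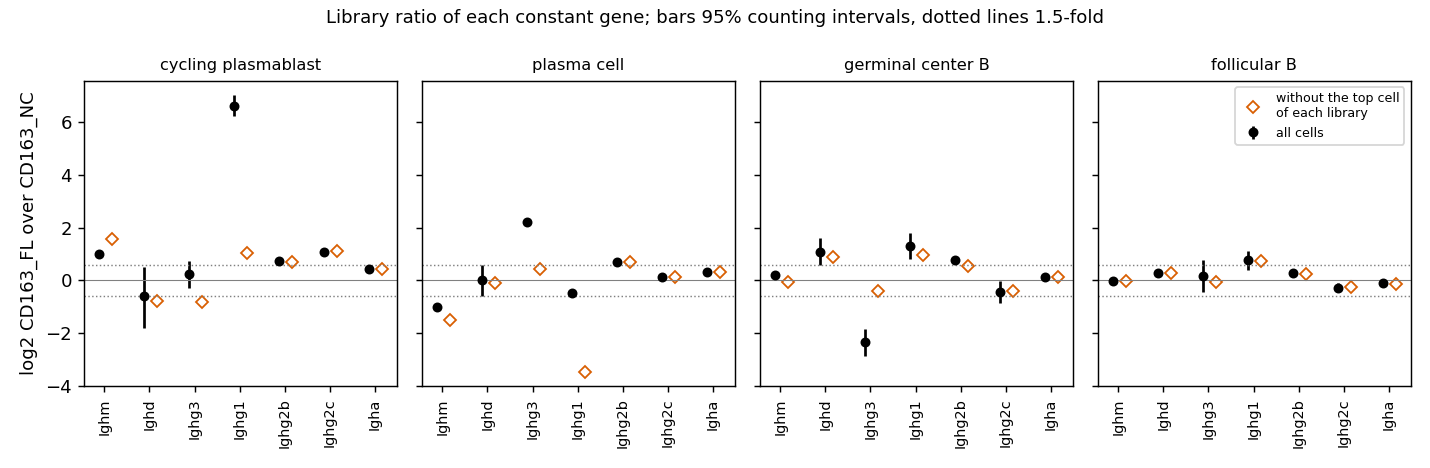
Log2 ratio of CD163_FL over CD163_NC for each member in 4 classes; black points with 95% counting intervals are all cells, open orange diamonds leave out the cell with the most UMIs of that gene in each library, and dotted lines mark 1.5-fold. The Ighg1 point of plasmablasts moves from 6.62 to 1.02, and the Ighg3 points of plasma cells and germinal center B cells move inside the dotted lines, while Igha stays in place.

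The genes around switching and plasma cell life were compared between the libraries in the same way. In plasma cells 16 of 38 measured were higher and 5 lower in CD163_FL, where over all genes 17.2% were higher and 13.2% lower, and the list's median log2 ratio was 0.39 against 0.07 over all genes. In germinal center B cells 16 of 35 were higher and 4 lower, against 22.2% and 19.8% of all genes, with medians of 0.46 and 0.10. In plasmablasts it was 8 higher and 5 lower of 38, against 14.8% and 13.9% of all genes. In follicular B cells it was 5 and 3 of 36, against 11.4% and 16.4%. Outside the B lineage, in T cells, 9 of 40 were higher and 10 lower, against 11.4% and 21.7% of all genes.

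In plasma cells the most abundant of the higher genes were Itga4, a homing integrin chain (304 CPM in CD163_FL and 196 CPM in CD163_NC), and Prdm1, which encodes the plasma cell regulator Blimp-1 (156 and 84.2 CPM). Tgfbr2, a receptor chain for TGF-beta, had 90.2 CPM in CD163_FL and 48.7 CPM in CD163_NC. Itga4 and Tgfbr2 were over 1.5-fold higher in T cells of CD163_FL as well, with 589 and 338 CPM there and 297 and 206 CPM in those of CD163_NC, while Prdm1 was not (24.5 and 27.2 CPM). Tnfrsf17 led the lower genes, with 98.5 and 186.6 CPM. In germinal center B cells Tgfbr2 had 385 CPM in CD163_FL and 212 CPM in CD163_NC, and Tgfbr1, the partner receptor chain, 447 and 182 CPM. Tnfrsf13b, which encodes the receptor TACI, was the most abundant of the lower genes there, with 32.6 and 86.9 CPM. The largest ratio of the list in germinal center B cells was that of Rora, with 145 CPM in CD163_FL and 12.1 CPM in CD163_NC. T cells had far more Rora, with 1021 and 700 CPM, but less Tgfbr1, with 52.2 and 47.2 CPM. The part of other cells' RNA in these differences was not tested.

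Ighe was almost silent. Plasma cells had 13 Ighe UMIs in CD163_FL and 14 in CD163_NC. Germinal center B cells had 0 in CD163_FL, which allows up to 4.89 CPM, and 12 in CD163_NC (2.96 CPM), none of them more than 2 in a cell. T cells had 1 UMI in CD163_FL and 0 in CD163_NC.

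Across 16 points, each a class of at least 50 cells in 1 library, the gene outside the receptor, ribosomal and mitochondrial genes whose log2(CPM + 1) went most closely with Igha was Edem2 (r = 0.98), which takes part in the disposal of misfolded glycoproteins. For Ighm it was Iqcb1 (0.93), with Irf4, a regulator of B cell activation, among the nearest 3 (0.90). For Ighd it was Shank1 (0.99), followed by Ccr6, a B cell chemokine receptor (0.98), and Fcer2a (0.98), which was a gate gene. Ighg2b went with Lrrn3 (0.95) and Ighg2c with Dhtkd1 (0.96), while the nearest genes of Ighg1, led by Slc6a17 (0.88), did not pass 2 CPM anywhere. For Ighg3 it was D10Wsu102e (0.86). The points share libraries and free RNA, and these values are a description.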

How the data were processed

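Single cells were measured in 2 libraries of mouse gut, CD163_FL and CD163_NC, with the 10x 3' kit V3 per the labels' protocols. The deposited values are raw counts of UMIs per gene and barcode. Per the file headers they were written by Cell Ranger 7.1.0, and the submitters' processing notes name mm10 and Seurat 4, with no role for Seurat and no further settings. Totals were 131306539 counts in 15270 barcodes of CD163_FL and 94729872 in 10390 of CD163_NC. Kept were barcodes with at least 500 UMIs, 200 genes and at most 10% mitochondrial UMIs that Scrublet (scanpy 1.11.5) did not call doublets. It called 4.36% in CD163_FL and 2.97% in CD163_NC, below the 12.2% and 8.31% expected.

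Gates counted detected markers. Plasma lineage needed 4 of 8 plasma markers, cycling 3 of 8, B cells 3 of 8, germinal center 3 of 10 and follicular 2 of 6 with at most 1 germinal center marker. Cells with 2 or more of 10 exclusion markers were left out of the B lineage. Shares have Clopper-Pearson, levels Poisson and ratios conditional binomial 95% intervals, all for counting error only. No test was made, since each group has 1 library. A gene was measured with at least 20 UMIs over both groups. A count of 0 allows up to 3. Named were the 7 members, Ighe, genes of the 41-gene list past 1.5-fold that led by UMIs, and the nearest genes by Pearson correlation. Igkc, Rora and the other-cell markers were named after their values were seen. Some genes of the lists are counted but not reported here by name. Members and lists were chosen with earlier results of these data known. Sequences and positions are from GENCODE M21 transcripts on GRCm38, the build of the files; identities were computed with Biopython 1.88. Python 3.11.15, numpy 2.4.6, scipy 1.17.1 and pandas 2.3.3 were used.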

Additional observations from a re-analysis of the deposited data

Results flagged for a closer look

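Ighm moved in opposite directions in neighbouring stages: its log2 ratio of CD163_FL over CD163_NC was 0.99 in cycling plasmablasts and -1.0 in plasma cells. Ighg3 also differed in direction between classes, with 2.20 in plasma cells and -2.34 in germinal center B cells. In cycling plasmablasts it was 0.23, within 1.5-fold. The difference between the classes was not tested in either case, since there is 1 library per group. Plasmablasts called IgM numbered 3 in CD163_FL and 4 in CD163_NC, and IgM plasma cells 4 and 6. One cell gave 82.4% of the Ighg3 UMIs of plasma cells of CD163_FL, and one gave 87.0% (986 UMIs) of those of germinal center B cells of CD163_NC. Without the highest cell of each library the Ighg3 values were 0.43 and -0.39, and the Ighm values 1.56 and -1.49.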

How the results depend on the processing

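No paired analysis was possible because each group has 1 library. The IgA share of called plasma cells and plasmablasts stayed within its counting interval under all 11 alternatives. The Ighm share of called germinal center B cells changed most with the treatment of free RNA. Without any correction it was 23.2% in CD163_FL and 19.6% in CD163_NC, and in follicular B cells 9.39% and 11.1%, since Igha then led. With the higher percentile of T cell shares it was 74.3% and 78.9%, and in follicular B cells 83.4% and 62.1%. In germinal center B cells of CD163_NC it was 51.0% with stricter gates, 75.6% after thinning to 1000 UMIs, 51.3% with the 95th percentile and 49.0% with T cell UMI counts. In follicular B cells it was 91.3% in CD163_FL and 94.8% in CD163_NC with at least 10 UMIs and 92.7% and 93.4% where 1 gene had to hold 80% of heavy chain UMIs. It was also 82.4% after thinning and 77.0% with the 95th percentile in CD163_FL, and 85.8% with stricter gates and 73.3% with T cell UMI counts in CD163_NC. In the secreting classes the log2 ratio of Igha kept its direction under the alternatives run. In plasmablasts it was 0.40 with median ratio scaling, 0.51 without immunoglobulin UMIs in the total, 0.47 with free RNA subtracted, 0.41 with doublets kept, 0.42 with a mitochondrial limit of 20%, 0.55 with stricter gates, 0.36 with Epcam not used and 0.44 without the top cells. In plasma cells it was 0.24 with median ratio scaling, 0.29 without immunoglobulin UMIs, 0.32 with free RNA subtracted, 0.30 with doublets kept or as a mean of per-cell shares, 0.31 with the mitochondrial limit or with Epcam not used, and 0.37 with stricter gates. Among germinal center B cells Igha turned to -0.19 with doublets kept and to -0.06 with Epcam not used, and in follicular B cells to 1.32 with free RNA subtracted. With stricter gates Ighg2b in plasma cells turned to -0.10 and Ighd in germinal center B cells to -0.51, and members 1.5-fold apart numbered 2 in plasmablasts, 2 in germinal center B cells and 2 in follicular B cells. Without the top cells they numbered 2 in germinal center B cells, and with free RNA subtracted 4 in follicular B cells. The subtracted ratios of Igha and the IgG genes there rest on what was left above the T cell level. The share of follicular B cells, CD163_FL over CD163_NC, was 0.395 and 0.306 with stricter gates. The cause of these changes was not tested. In all, 526 isotype shares stayed within their counting interval and 178 did not; of the library ratios 182 did, 90 did not and 2 reversed. The 95th percentile, T cell UMI counts, Epcam and top cell settings were chosen after seeing the data. Median depths of follicular B cells were 4166 UMIs in CD163_FL and 4914 in CD163_NC, which limits calls of weakly expressed genes there.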

Other observations

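Large parts of the members' UMIs lay in cells outside every gate. In CD163_FL 30.6% of Igha UMIs and 59.7% of Ighg1 UMIs did so, and in CD163_NC 26.4% and 3.74%. Ighg3 was at 55.7% and 50.5%, and Ighm at 42.2% and 11.7%. These cells were not assigned to a class, and the isotype shares of the gated classes do not describe them.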
